A study of Mus musculus with 9 samples.

Results

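The MHC class II pathway was followed in mouse liver RNA through 8 genes: H2-Aa, H2-Ab1, H2-Eb1, Cd74, H2-DMa, H2-DMb1, H2-DMb2 and Ciita. They were found by symbol, and all 8 were present among the 32285 genes of the expression table. MHC class II molecules are made of an alpha and a beta chain and show peptides from engulfed material to CD4+ T cells. The chains are assembled on the invariant chain, which fills the peptide groove and guides the complex to endosomes, where proteases cut it down and the DM proteins exchange its last fragment for a peptide. In the liver the pathway is best known from dendritic cells, B cells and macrophages, including the resident Kupffer cells, and CIITA is the transcriptional coactivator that switches its genes on.

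The livers came from Tet-OFF mice, whose treatment began when they were 4 weeks old, and RNA from whole frozen, powdered liver was sequenced in 9 libraries, 3 for each of 3 groups. Mice of all groups carried PB CAG-CreERT2, driven by a promoter that is active in most cell types, a Rosa26 allele in which a stop cassette precedes the transactivator tTA, and a Rosa26 tetO-Venus-ires-mCherry allele, and all received tamoxifen, which removes the stop cassette through Cre. The Rosa26 alleles were made in V6.5 embryonic stem cells. The authors describe the mice treated with Dox or Tc as male. Controls received tamoxifen alone, and the other groups also received doxycycline (Dox) or tetracycline (Tc) at 2 mg/mL in drinking water with 10 mg/mL sucrose for 7 days. The question was how far each drug changed gene expression in the liver. Whether the water of the controls held sucrose is not given in the sources used here. In Tet-OFF mice either drug also turns Venus off, so drug and transgene state cannot be told apart in these groups.

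Recovered reads on genes numbered from 7426136 (Dox library 2) to 12183041 (Tc library 2), and values are given as normalized counts, that is reads divided by a size factor of the library. The summed level of 8 hepatocyte markers was 469931.5 to 1625130.8 normalized counts, so the defining markers of the labelled tissue were present. The lowest sum was that of Dox library 2, and the highest that of control library 1. The mean sum was 0.479 of the control mean with Dox and 0.728 with Tc. In all 3 groups, library 3 resembled a mixture of libraries 1 and 2, that is a sum of both with fixed weights. The fitted weights of library 1 were 58.4% in the controls, 61.3% with Dox and 61.2% with Tc. Adjusted p-values from all 9 libraries are therefore too small, and each call of a class II gene is given with and without libraries 3. The p-values measure the spread between these libraries.

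H2-Aa, which encodes an alpha chain, H2-Eb1, which encodes a beta chain, and H2-DMb1 and H2-DMb2, which encode beta chains of DM, shared a pair of short sequences ahead of their start sites. The stretches are shown because class II genes are known to be controlled together through a compact upstream module, in which the X box lies ahead of the Y box. The sequences are RefSeq promoters in GRCm38.p6, read 5′ to 3′ on the strand of the gene, and the capitals mark the letters AAC and TGATTGG.
H2-Aa: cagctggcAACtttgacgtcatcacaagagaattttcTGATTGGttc
H2-Eb1: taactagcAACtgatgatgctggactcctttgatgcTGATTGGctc
H2-DMb1: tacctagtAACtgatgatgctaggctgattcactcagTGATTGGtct
H2-DMb2: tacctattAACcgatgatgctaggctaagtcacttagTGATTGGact
The stretches lie on chromosome 17, at chr17:34287864-34287910 on the minus strand for H2-Aa and on the plus strand at chr17:34305770-34305815 for H2-Eb1, chr17:34153091-34153137 for H2-DMb1 and chr17:34145120-34145166 for H2-DMb2. TGATTGG began 50, 61, 63 and 92 bases before the start site in H2-Aa, H2-Eb1, H2-DMb1 and H2-DMb2. AAC lay 29 bases ahead of TGATTGG, from first letter to first letter, in 3 of these genes and 28 bases ahead in H2-Eb1. The stretches of H2-DMb1 and H2-DMb2 were identical at 41 of 47 bases.

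Promoter windows of 300 bases were matched for 5 of the 8 genes, with 2 windows for H2-DMa, so 6 windows were searched. TGATTGG, on either strand, was found in 4 of the 6 windows and in 7.82% of all 32851 promoter windows. GATGATGC, on either strand, was found in 3 of the 6 windows (H2-Eb1, H2-DMb1 and H2-DMb2) and in 0.703% of all windows, and it does not overlap TGATTGG in them. AAC between 26 and 31 bases ahead of TGATTGG on the same strand was found in 4 of the 6 windows and in 0.639% of all windows. Neither H2-DMa window held any of these letters. The letters were chosen after the sequences were seen, and a match is a description of the window.

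The class II genes had lower levels in Dox-treated livers than in control livers, and the size of the difference depended on which liver was looked at. The level of each of the 8 genes was lower in every Dox library than in every control library. The same held in this direction for 17.1% of all 12100 genes whose mean reached 10 normalized counts. H2-DMa, which encodes the alpha chain of DM, was the only one of the 7 genes tested by limma that was called, meaning over 2-fold different with an adjusted p below 0.05, as 3.86% of all tested genes did in this direction. H2-DMb2 had a mean under 10 and was not in that fit.

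H2-Aa (ENSMUSG00000036594, chromosome 17, 34282744 to 34287823 in GRCm38) encodes the alpha chain of the I-A molecule. Its normalized counts were 144.0, 477.7 and 343.3 in control libraries 1, 2 and 3, then 127.4, 15.0 and 97.7 with Dox, and 112.3, 416.4 and 206.3 with Tc. Dox library 2 was far below all the others, while Dox library 1 lay just under control library 1. The log2 fold change of Dox against control was -2.30 (standard error 0.83, limma adjusted p = 0.114), and that of Tc against control was -0.43 (standard error 0.83, limma adjusted p = 0.897).

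H2-Ab1 (ENSMUSG00000073421, chromosome 17, 34257689 to 34269419), the beta chain that pairs with H2-Aa, followed it closely. Its normalized counts were 150.3, 497.2 and 353.4 in the controls, 129.5, 17.3 and 78.3 with Dox, and 110.3, 426.2 and 251.0 with Tc. Control and Tc libraries overlapped, and the Dox libraries were below every control library. The ratio of H2-Ab1 to H2-Aa stayed between 0.802 and 1.22 across the 9 libraries. Its log2 fold change of Dox against control was -2.38 (standard error 0.78, limma adjusted p = 0.0916).

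H2-Eb1 (ENSMUSG00000060586, chromosome 17, 34305867 to 34316674), the beta chain of the I-E molecule, was at 129.1, 401.7 and 240.3 normalized counts in the controls, 111.6, 9.2 and 73.9 with Dox, and 77.1, 343.5 and 192.0 with Tc. The order of the libraries was the same kind as for H2-Aa, with Dox library 2 lowest and control library 2 highest. The ratio of H2-Eb1 to H2-Aa ranged from 0.615, in Dox library 2, to 0.931. The log2 fold change of Dox against control was -2.40 (standard error 0.91, limma adjusted p = 0.127).

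Cd74 (ENSMUSG00000024610, chromosome 18, 60803848 to 60812652) encodes the invariant chain, the chaperone of newly made class II chains. Its normalized counts were 488.0, 1390.7 and 1003.1 in the controls, 441.2, 100.1 and 287.7 with Dox, and 393.5, 1313.8 and 702.4 with Tc. Cd74 had the highest level of the 8 genes in every library, also per length, with a mean of 572.1 normalized counts per kb of exon in the controls, 164.6 with Dox and 478.4 with Tc. The log2 fold change of Dox against control was -1.91 (standard error 0.63, limma adjusted p = 0.0939).

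The share of Cd74 among the reads of the invariant chain and the chains varied little in 8 libraries and was higher in 1. Of the reads on Cd74, H2-Aa, H2-Ab1 and H2-Eb1 together, Cd74 took 50.3% to 56.8% in those 8 libraries, and the exact intervals of the lowest (control library 2) and the highest (Tc library 1) did not overlap. In Dox library 2 it took 70.7%, which was 87 of 123 reads (95% exact binomial interval 61.9% to 78.6%). The interval covers counting error only. In that library the chains were thus further below their control levels than the invariant chain was.

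The DM genes encode the editors that load peptides onto class II molecules and themselves present none. H2-DMa (ENSMUSG00000037649, chromosome 17, 34119541 to 34139101) was measured at 44.5, 75.2 and 53.4 normalized counts in control libraries, 14.7, 23 and 15.0 with Dox, and 29.3, 37.8 and 37.9 with Tc. Its 3 groups did not overlap: all Dox libraries lay below all Tc libraries, and these below all control libraries. Unlike the chains, H2-DMa was higher in Dox library 2 than in the other Dox libraries. Its log2 fold change of Dox against control was -1.66 (standard error 0.27, limma adjusted p = 0.0147; DESeq2 adjusted p = 9.88e-05). Without libraries 3 the fold change was -1.60 on the log2 scale with a limma adjusted p of 0.559, and DESeq2 gave an adjusted p of 0.25. The limma adjusted p was also above the threshold without control library 2 (0.0604), without control library 3 (0.0678) or without Dox library 3 (0.0683).

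H2-DMb1 (ENSMUSG00000079547, chromosome 17, 34153072 to 34160230), a beta chain of DM, was at 21.2, 72.5 and 40.7 normalized counts in the controls, 10.5, 11.5 and 7.9 with Dox, and 9.8, 57.6 and 31.2 with Tc. The 3 Dox libraries were close to each other and to Tc library 1, and Dox library 2 did not stand apart. Its log2 fold change of Dox against control was -1.91 (standard error 0.63, limma adjusted p = 0.0935). H2-DMb2 (ENSMUSG00000037548, chromosome 17, 34143307 to 34151555), the other beta chain, was the least abundant in counts. It had 6.4, 16.8 and 10.2 normalized counts in the controls, 3.2, 2.3 and 0.0 with Dox, and 3.9, 5.4 and 5.9 with Tc. The Dox values rest on 3, 2 and 0 reads, and a count of 0 allows up to 3 reads. DESeq2, which tested all 8 genes, gave H2-DMb2 a log2 fold change of -2.69 (standard error 0.91, adjusted p = 0.026). H2-DMb1 and H2-DMb2 are close paralogs: 13.9% and 13.3% of their 86-base windows occurred in the other gene, and reads from these windows are left out when only uniquely mapped reads are counted. None of the windows of the other 6 genes occurred in another gene.

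Ciita (ENSMUSG00000022504, chromosome 16, 10480059 to 10528418) encodes the coactivator CIITA, whose level is known to set class II expression. Its normalized counts were 20.1, 52.2 and 54.7 in the controls, 15.8, 1.2 and 14.1 with Dox, and 15.6, 53.1 and 32.0 with Tc. Dox library 2 held 1 Ciita read, against 15 and 16 in the other Dox libraries and 19 to 59 in the controls. The ratio of Ciita to H2-Aa stayed between 0.0769 and 0.159 in all libraries, the lowest of these resting on that 1 read. The log2 fold change of Dox against control was -2.28 (standard error 0.82, limma adjusted p = 0.115). Per length Ciita was the least abundant of the 8 genes in the controls, with a mean of 4.4 normalized counts per kb, below H2-DMb2 at 6.4, H2-DMa at 16.7 and H2-DMb1 at 26.7. The 3 chains lay between these and Cd74, with H2-Aa at 84.7, H2-Ab1 at 129.9 and H2-Eb1 at 132.2. The ranges of neighbours in this order overlapped over the control libraries, except that all H2-DMa values lay above all H2-DMb2 values and all Cd74 values above all H2-Eb1 values. Compared within each control library, H2-Ab1 also lay above H2-Aa, H2-Aa above H2-DMb1, and H2-DMb2 above Ciita.

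**Figure D1:**
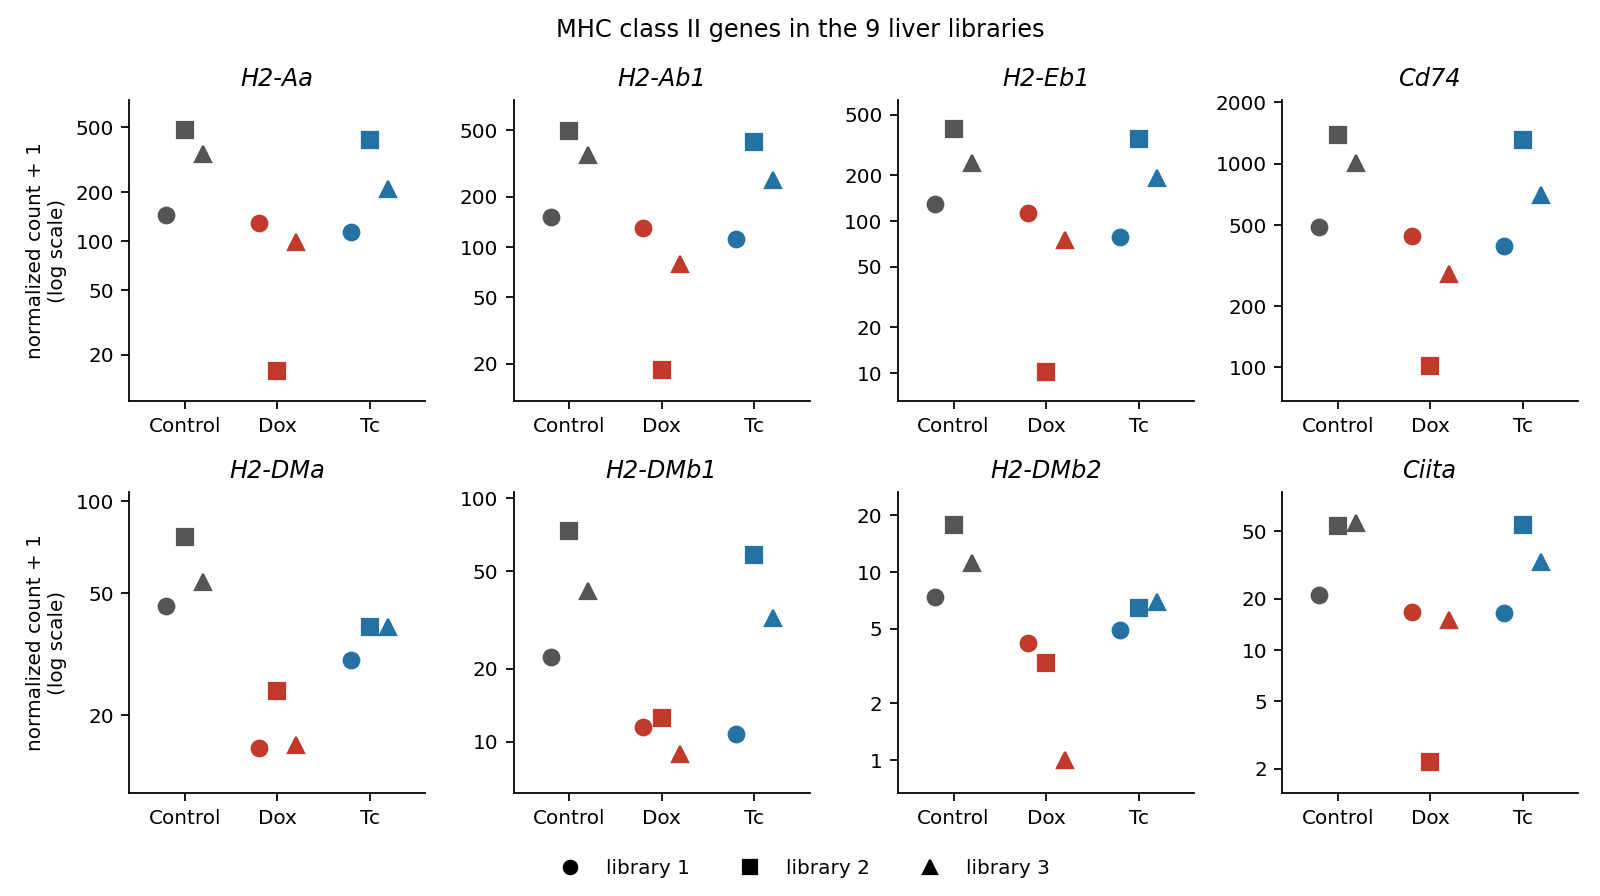
Normalized counts plus 1 (log scale, 1 panel per gene) of the 8 class II genes in the 3 libraries of the control, Dox and Tc groups, with circles for library 1, squares for library 2 and triangles for library 3. In the panels of H2-Aa, H2-Ab1, H2-Eb1, Cd74 and Ciita the square of the Dox group lies far below all other points, whereas the Dox points of H2-DMa and H2-DMb1 lie together.

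Within the Dox group 2 patterns were seen. H2-Aa, H2-Ab1, H2-Eb1, Cd74 and Ciita were lowest in Dox library 2, where H2-Aa was 8.52-fold, H2-Ab1 7.51-fold, H2-Eb1 12.1-fold and Cd74 4.41-fold below Dox library 1. In Dox library 1 the same genes were only 1.11-fold to 1.27-fold below control library 1, the lowest control. H2-DMa and H2-DMb1 behaved otherwise: H2-DMa was 3.02-fold below control library 1 in Dox library 1, and H2-DMb1 was 2.01-fold below it. In Dox library 2 H2-DMa took 12.8% of the reads of the 8 genes (20 of 156 reads, 95% exact binomial interval 8.01% to 19.1%), against 1.42% to 4.43% in the other libraries. The difference between these 2 patterns, which were noticed in the data, was not tested.

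The controls and the Tc group also varied widely for these genes. Control library 2 was 3.32-fold above control library 1 for H2-Aa, 2.85-fold for Cd74, 2.6-fold for Ciita and 1.69-fold for H2-DMa. Tc library 2 was 3.71-fold above Tc library 1 for H2-Aa, 5.89-fold for H2-DMb1, 3.34-fold for Cd74 and 1.29-fold for H2-DMa. Of the 7 tested genes, 6 differed over 2-fold between libraries 1 and 2 in the controls, 5 with Dox and 6 with Tc. Among all 12100 genes this share was 4.84% in the controls, 35.2% with Dox and 8.45% with Tc. H2-DMa, the gene that passed the limma test, had the smallest difference of the 8 genes between control libraries 1 and 2.

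Over the 7 genes tested by limma the median log2 fold change of Dox against control was -2.28, beside 0.00 over all tested genes. All 7 had an unadjusted limma p under 0.05 with a fold change over 2, as did 7.75% of all tested genes in this direction. With DESeq2 on recovered reads, 7 of the 8 genes passed the adjusted threshold, against 5.77% of all 13942 genes it tested in this direction. The exception was H2-Eb1 (DESeq2 adjusted p = 0.0541). The DESeq2 adjusted p-values of the others, beside H2-DMa and H2-DMb2, were 0.0154 for H2-DMb1, 0.0179 for H2-Ab1, 0.0216 for Cd74, 0.0346 for H2-Aa and 0.0401 for Ciita. Without libraries 3, DESeq2 called 0 of the 8 genes while 0.637% of all 13493 genes passed in this direction, and 5 of the 8 had an unadjusted p under 0.05. Limma without libraries 3 called 0 of the 7, with 1 at an unadjusted p under 0.05, and it called 0 of the 12100 genes in all.

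The effect size rested in large part on Dox library 2. Without it, the median log2 fold change of the 7 genes was -1.36, H2-DMa was the gene called (-1.85, limma adjusted p = 0.00444), and H2-Aa was at -1.36 (limma adjusted p = 0.129). In that fit 794 of all 12100 genes were called lower. Without Dox library 1 instead, 6 of the 7 genes passed, with H2-DMb1 the exception (-1.95, limma adjusted p = 0.0801), while 6.93% of all 12100 genes passed in this direction. When both Dox library 2 and Dox library 3 were left out, an alternative chosen after the data were seen, H2-DMa was at -1.86 (limma adjusted p = 0.016), and the other 6 genes were between -1.82 and -0.99 with limma adjusted p-values of 0.211 to 0.408. The lone Dox library is assumed there to vary like the other groups.

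For Tc against control, the log2 fold changes of the tested genes lay between -0.68 and -0.30. H2-DMa and H2-DMb2 were lower in every Tc library than in every control library (2 of the 8 genes), as were 14.9% of all 12100 genes, and the other 6 genes overlapped. None of the 7 tested genes passed the limma threshold, which 0.124% of all genes passed in this direction. H2-DMa had the largest log2 fold change, -0.68 (95% confidence interval -1.31 to -0.06, limma adjusted p = 0.401), and was the only one with an unadjusted p under 0.05 in limma and in DESeq2. The intervals of the other genes ran from -2.31 to 1.46 for H2-Aa, from -2.17 to 1.40 for H2-Ab1, from -2.50 to 1.64 for H2-Eb1, from -2.02 to 0.86 for H2-DMb1, from -1.75 to 1.14 for Cd74 and from -2.24 to 1.52 for Ciita. These intervals reach changes of more than 2-fold in both directions for 5 of the 6 genes, and more than 2-fold downwards for H2-DMb1. The median was -0.43, beside 0.00 over all tested genes. It rested on Tc library 1, which was the lowest Tc library for all 8 genes: without it, the log2 fold changes of H2-Aa, H2-Ab1, H2-Eb1, H2-DMb1, Cd74 and Ciita lay between 0.03 and 0.15.

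Dox and Tc, tetracyclines that differ in the ring position of a hydroxyl group, were given at the same concentration for the same time and were compared directly for 7 genes. The comparisons of each drug with the controls share the control libraries. None of the 7 passed the limma threshold between the drugs, which 0.174% of all genes passed in this direction, and 4 had an unadjusted p under 0.05 in limma, as did 21.7% of all 12100 genes in either direction. With the replicate block, which pairs Dox and Tc libraries by number, 2 of the 7 had an unadjusted p under 0.05, and 1 when the block was fitted to these groups alone, with 0 called in both fits. DESeq2 called 0 of the 8, with 7 at an unadjusted p under 0.05, beside 22.7% of the 13942 genes it tested in either direction. H2-DMa and H2-DMb2 were lower in every Dox library than in every Tc library (2 of the 8 genes), as were 12.4% of all 12100 genes. The log2 fold change of Dox against Tc was -0.97 for H2-DMa (interval -1.60 to -0.35, limma adjusted p = 0.133), -1.87 for H2-Aa (interval -3.75 to 0.02, limma adjusted p = 0.234) and -2.0 for H2-Ab1 (interval -3.78 to -0.21, limma adjusted p = 0.201). For Cd74 the interval was -3.05 to -0.16, for Ciita -3.80 to -0.05, for H2-Eb1 -4.04 to 0.10 and for H2-DMb1 -2.77 to 0.12. The median of the 7 was -1.87, beside -0.02 over all genes, and -1.0 without Dox library 2.

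**Figure D2:**
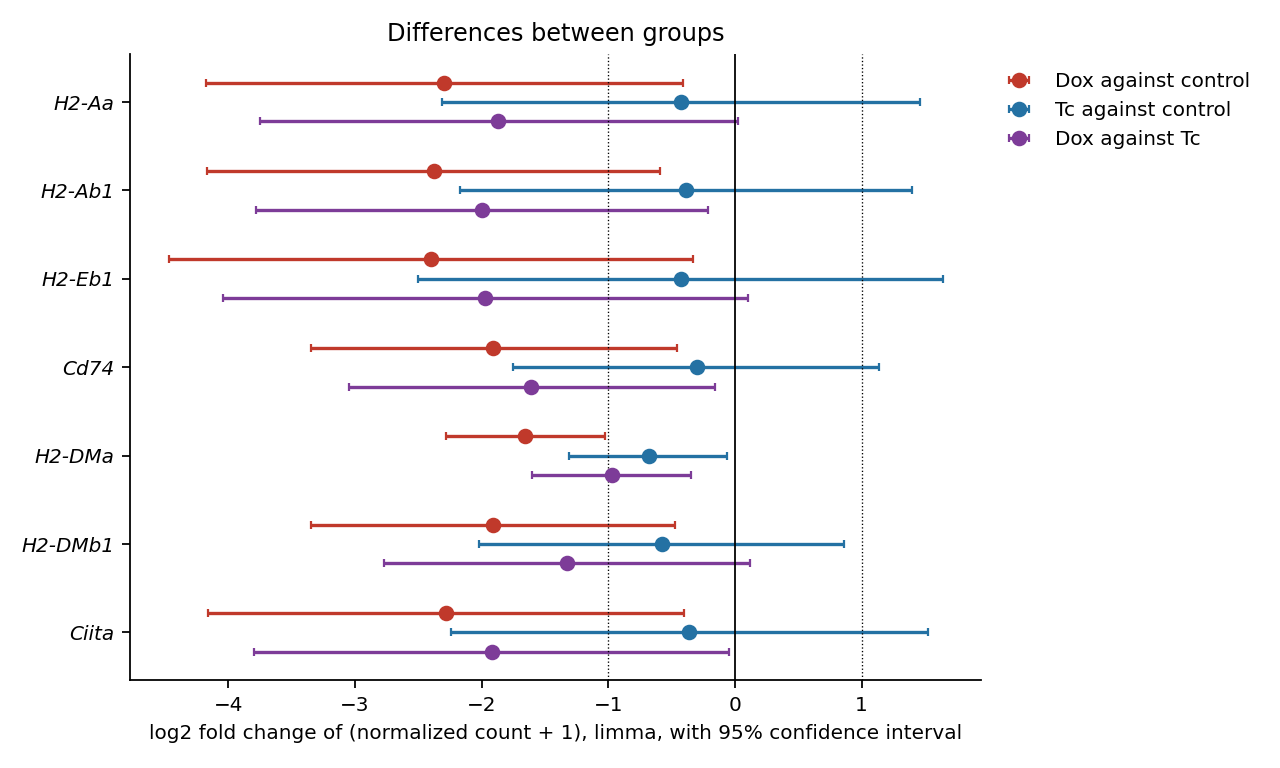
Log2 fold changes of the 7 class II genes tested by limma (x axis, on the scale of normalized count plus 1) with 95% confidence intervals, for Dox against control, Tc against control and Dox against Tc; dotted lines mark 2-fold. The interval of H2-DMa for Dox against control, -2.28 to -1.03, is the narrowest of that comparison, and the other 6 reach from below -3 to above -1.

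Genes that work with class II molecules were called in none of the limma comparisons. Of 21 partner genes listed (proteases, transcription factors, modulators and ubiquitin ligases), 20 were in the table and 17 were tested. Limma called 0 of the 17 in each of the 3 comparisons. For Dox against control 2 had an unadjusted p under 0.05 with a fold change over 2, and the median log2 fold change was -0.22. The subunits of the X box factor, which recruits CIITA, had log2 fold changes of Dox against control of -0.15 for Rfx5, 0.20 for Rfxap and 0.02 for Rfxank. Creb1 was at -0.24. The subunits of the Y box factor were at -0.54 for Nfya, 0.45 for Nfyb and 0.46 for Nfyc. The limma adjusted p-values of these 7 genes were 0.0612 to 0.97. DESeq2 gave Nfya a log2 fold change of -0.55 with an adjusted p of 0.0445, which is under 2-fold and so not called.

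Ctss encodes cathepsin S, which cuts the invariant chain in antigen-presenting cells. Its normalized counts were 683.8, 879.4 and 789.5 in the controls, 168.5, 583.2 and 274.5 with Dox, and 227.5, 575.5 and 372.3 with Tc. Dox library 2 was the highest of its group for Ctss and the lowest for Cd74. The log2 fold change of Dox against control was -1.38 (standard error 0.46, limma adjusted p = 0.093), and -1.85 without Dox library 2 (limma adjusted p = 0.00937). Ifi30, the thiol reductase that unfolds antigens, had 217.0, 501.6 and 342.0 normalized counts in the controls, 105.3, 317.5 and 159.2 with Dox, and 126.0, 226.6 and 176.0 with Tc. Dox library 2 was the highest of its group for Ifi30 too, and the log2 fold change was -0.93 (limma adjusted p = 0.198). Ctsl, a cathepsin with wide expression, was at 6949.2, 5298.4 and 5789.8 in the controls and at 4739.5, 32727.2 and 14183.0 with Dox, so Dox libraries 2 and 3 were above the controls and Dox library 1 below them. It was the partner gene that DESeq2 called (log2 fold change 1.52, DESeq2 adjusted p = 0.0329), and limma gave an adjusted p of 0.229. Without libraries 3 Ctsl was at 1.61 with a DESeq2 adjusted p of 0.481.

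Some markers of the cells that carry class II were called lower with Dox as well, and their part in the class II difference was not tested. In whole liver, fewer cells of a type and less RNA per cell cannot be told apart. Among all tested genes, limma called 3.86% lower with Dox and DESeq2 called 5.77%, or 0.637% without libraries 3. Of the 12 Kupffer cell and macrophage markers, 3 were lower with Dox by limma, namely Clec4f (-1.85, limma adjusted p = 0.00958), Adgre1 and Csf1r, with a median of -1.51. Of the 8 pan-leukocyte markers 3 were lower, namely Ptprc (-1.34, limma adjusted p = 0.0372), Coro1a and Itgb2. Of the 12 B cell markers 4 were tested and 2 were lower, Cd22 (-1.50, limma adjusted p = 0.023) and Igkc (-1.94, limma adjusted p = 0.0242). Of the 12 dendritic cell markers only 2 had enough reads for limma and 0 were called, while DESeq2 called Batf3, Itgax and Fscn1 lower. Zbtb46, a transcription factor of dendritic cells, had a log2 fold change of 0.22. The monocyte marker Lyz2 was lower (-1.81, limma adjusted p = 0.0231), and of 8 sinusoidal endothelial markers Stab1, Stab2 and Cdh5 were lower. Limma called 0 markers of these lists for Tc against control or for Dox against Tc, where 0.124% and 0.174% of all genes were called lower. Without libraries 3, limma called 0 markers and DESeq2 called Clec4f, Stab1 and Stab2 for Dox against control. In the other marker lists, limma called 0 of 1 tested T and NK cell marker, 0 of 8 stellate cell markers and 0 of 8 hepatocyte markers for Dox against control, and Sox9 was higher among 3 tested cholangiocyte markers but was not called without libraries 3 (limma adjusted p = 0.559, DESeq2 adjusted p = 0.235). DESeq2 called Gzma lower among the T and NK cell markers and Alb lower among the hepatocyte markers, but neither without libraries 3. None of the lists had a marker at 0 in every library.

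The class II genes and the macrophage markers did not rank the Dox livers alike. The summed level of H2-Aa, H2-Ab1, H2-Eb1 and Cd74 was 911.4, 2767.3 and 1940.1 normalized counts in the controls, 809.7, 141.5 and 537.5 with Dox, and 693.3, 2499.9 and 1351.8 with Tc. The 12 macrophage markers summed to 12178.3, 20036.5 and 15827.4 in the controls, 4373.0, 10540.2 and 6154.1 with Dox, and 7483.0, 11470.1 and 9506.9 with Tc. Dox library 2 thus had the most macrophage marker RNA of the Dox group and the least class II RNA. The ratio of the class II sum to the macrophage sum was 0.0134 in Dox library 2 and 0.0748 to 0.218 in the other 8 libraries, and Dox library 1, at 0.185, was second only to Tc library 2.

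**Figure D3:**
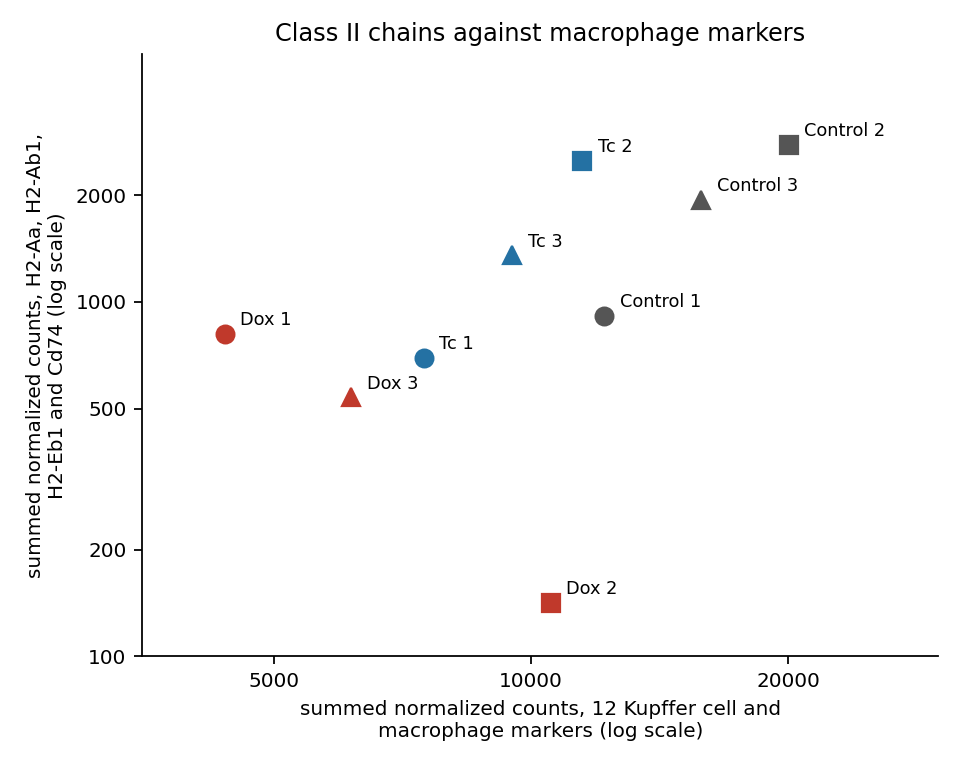
Summed normalized counts of H2-Aa, H2-Ab1, H2-Eb1 and Cd74 (y axis) against those of 12 Kupffer cell and macrophage markers (x axis), both on log scales, 1 point per library. Dox library 2, at 141.5 against 10540.2, lies far below the other 8 libraries, which rise only loosely from lower left to upper right. Dox library 1 lies above Dox library 3 and Tc library 1 at a lower macrophage sum. Control libraries 1 and 3 lie below Tc library 2 at a higher macrophage sum.

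Of the other cells that express class II, B cell markers were the list in which Dox library 2 was also lowest. The 12 B cell markers summed to 179.9, 330.0 and 291.1 normalized counts in the controls, 109.5, 65.6 and 80.9 with Dox, and 100.6, 190.6 and 112.9 with Tc. The 12 dendritic cell markers summed to 182.1, 242.4 and 226.3 in the controls, 125.3, 134.6 and 142.5 with Dox, and 126.9, 183.4 and 155.8 with Tc, so the sums of the Dox libraries were close to each other. Single markers were not: 4 of the 12 had 0 reads in Dox library 2, against 0 and 1 in Dox libraries 1 and 3. Fscn1 was at 63.5, 69.9 and 80.1 in the controls and 29.5, 5.8 and 29.0 with Dox, while Zbtb46 was at 59.3, 79.6 and 66.1 in the controls and 55.8, 107.0 and 82.7 with Dox. The ratio of class II to B cell marker RNA was 2.16 in Dox library 2 and 5.06 to 13.1 in the other libraries, and the ratio to dendritic cell marker RNA was 1.05 in Dox library 2 and 3.77 to 13.6 in the others. The ratios to all 3 marker sums were lowest in that library, and the dendritic cell sum there was mostly Zbtb46 reads. This was not particular to these cells. The ratios to the hepatocyte (3.01e-04), stellate cell (0.0377) and sinusoidal endothelial (0.0384) marker sums were also lowest in Dox library 2.

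The summed level of interferon gamma pathway genes, a pathway known to induce Ciita and class II expression, was also low in Dox library 2. The 20 genes summed to 9201.7, 8417.8 and 9208.6 normalized counts in the controls, 7864.7, 3417.5 and 6111.0 with Dox, and 8559.1, 8980.0 and 8097.9 with Tc. Dox library 1 lay near the controls and Dox library 2 well under them, the same order as for the class II chains. Outside the Dox group the orders differed. Control library 2 had the lowest interferon sum of the controls and the highest class II sum (2767.3). Tc library 3 had the lowest interferon sum of its group, and Tc library 1 the lowest class II sum (693.3). A link between the pathway and the class II levels was not tested. In Dox library 2, 15 of the 20 genes were below every control library and 1, the chemokine gene Cxcl10, was above them, at 81.7 against 15.9 to 21.2. A high count was not particular to the interferon genes. Below every control library in Dox library 2 were 10 of 12 B cell, 9 of 12 dendritic cell and 6 of 8 pan-leukocyte markers. The same held for 6 of 8 sinusoidal endothelial and 6 of 8 hepatocyte markers, 13 of 20 partner genes and 12 of 17 class I genes. Counts were lower for macrophage (7 of 12), T and NK cell (5 of 10), stellate cell (4 of 8) and cholangiocyte markers (1 of 6), and for costimulation genes (1 of 7). The share over all genes was not counted for that library. The receptor gene Ifngr1 was within the controls there, at 375.0. Iigp1, an interferon-inducible GTPase that held a large part of the sum, had 3647.7, 2928.3 and 3404.7 normalized counts in the controls and 2965.2, 219.7 and 1910.0 with Dox, with a log2 fold change of -1.62 (limma adjusted p = 0.214). Irf1, a transcription factor of the pathway, had a log2 fold change of -0.93 (limma adjusted p = 0.0505), and Gbp7 was the gene called among 18 tested, at -1.46 (limma adjusted p = 0.0313). Among all tested genes, limma called 3.86% in this direction. Without libraries 3 Gbp7 was called by neither limma nor DESeq2.

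MHC class I genes, which present peptides made inside the cell and are expressed by hepatocytes too, had smaller log2 fold changes. The 17 class I pathway genes summed to 44199.7, 45167.1 and 43449.3 normalized counts in the controls, 44668.6, 23949.3 and 35970.0 with Dox, and 51108.6, 43460.4 and 50714.1 with Tc. Again Dox library 2 was the lowest and Dox library 1 was within the controls. Limma called 0 of the 17 for Dox against control, with a median log2 fold change of -0.49. Of 7 genes of costimulation, the second signal that T cells need beside class II, 4 were tested by limma and 0 were called, while DESeq2 called Cd86 lower (-1.26, DESeq2 adjusted p = 0.0222; without libraries 3 -0.99, adjusted p = 0.651).

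**Figure D4:**
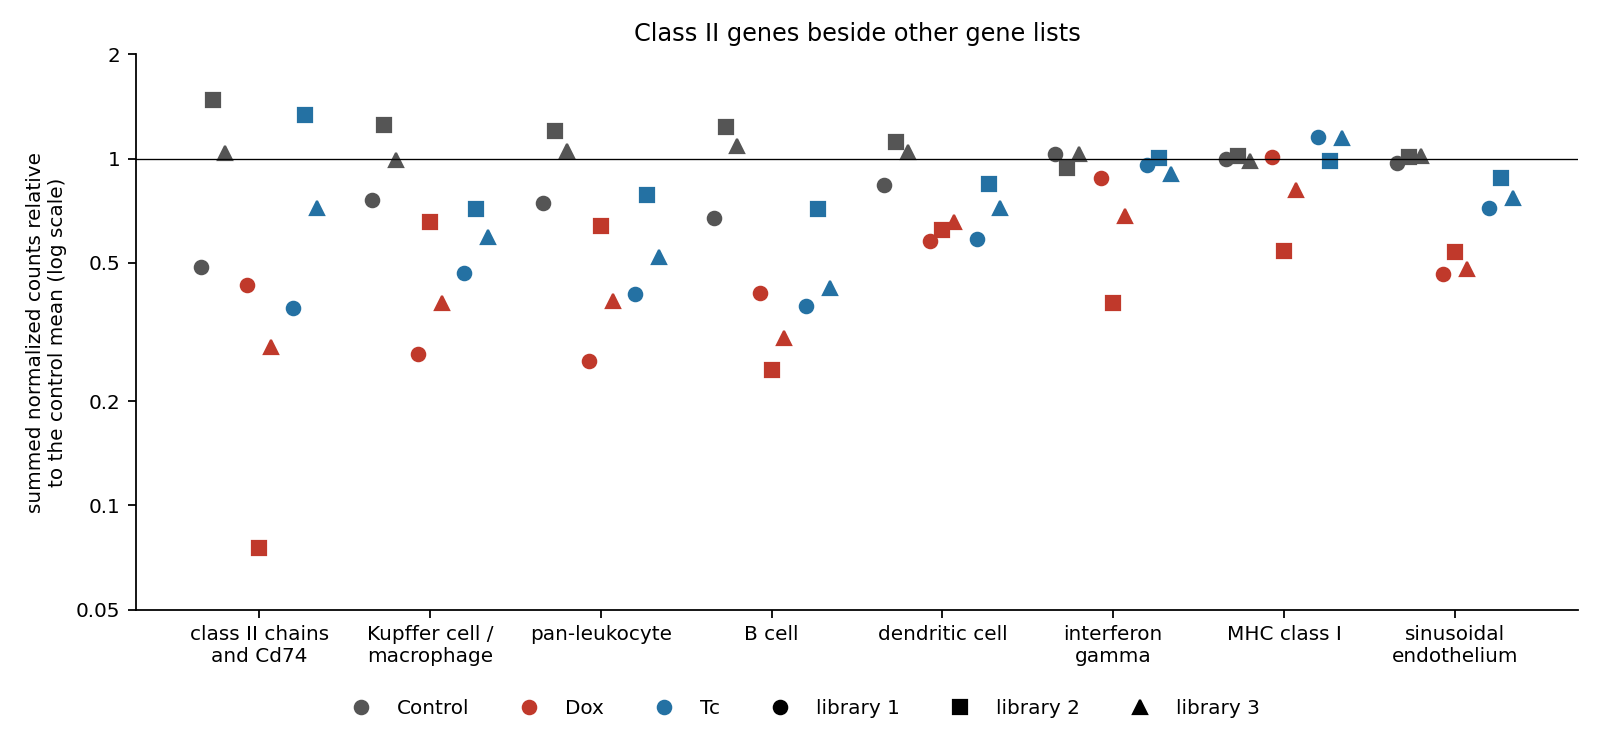
Summed normalized counts of H2-Aa, H2-Ab1, H2-Eb1 and Cd74 and of 7 other gene lists in each library, divided by the mean of the control libraries (y axis, log scale), coloured by group and shaped by library number. The Dox library 2 square is lowest in its group for class II, B cell, interferon gamma and class I genes, and highest in its group for macrophage, pan-leukocyte and sinusoidal endothelial markers.

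The genes whose pattern over the 9 libraries was most like that of the class II genes were taken from the 9375 genes outside the 8 that had a mean of 50 or more. Likeness was the Pearson correlation with the mean scaled log2 value of the 7 tested class II genes, and it is a description over 9 libraries of which 3 are close to sums of others. The 10 genes were Atxn1 (r = 0.97), Ptpn6, Pcx, Itga6, Pla2g15 and Sema6a (r = 0.96 each), and Dnpep, Lyn, Cnn2 and Rtn4 (r = 0.95 each). Itga6, an integrin subunit, had 110.1, 161.0 and 150.0 normalized counts in the controls, 53.7, 33.4 and 43.1 with Dox, and 56.6, 198.7 and 112.9 with Tc. Ptpn6, a phosphatase of blood cells, had 209.6, 292.8 and 231.4 in the controls, 140.0, 103.5 and 122.3 with Dox, and 158.2, 231.1 and 182.8 with Tc. As with the class II chains, both genes were lowest in Dox library 2, but over a smaller range. Irf1 had r = 0.92 and stood at rank 57, Ctss had r = 0.47 and Ctsl had r = -0.74. A high r was not particular to Irf1. The sinusoidal endothelial markers called lower with Dox had r = 0.92 (Stab1, rank 65), 0.80 (Stab2) and 0.65 (Cdh5).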

How the data were processed

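The authors trimmed reads with cutadapt, aligned them to mm10 with STAR, counted uniquely mapped reads per gene with HTSeq 2.0.5 and normalized the counts with DESeq2 1.42.0. The unit of the deposited table is a signal, namely normalized counts, and 0 columns were left unused. Every value was a whole multiple of 1 read (100% within 0.01 reads), so reads could be recovered. Symbols were found for 32158 of 32285 identifiers.

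Log2(normalized count + 1) was compared by limma-trend (limma 3.58.1, R 4.3.3), in 1 model of all 9 libraries and the 12100 genes whose mean reached 10. A gene was called when it differed over 2-fold and its p, adjusted by Benjamini and Hochberg, was below 0.05. Fold changes are on that log2 scale, which understates those of low genes. DESeq2 1.42.0 and edgeR 4.0.16 on recovered reads were alternatives, and DESeq2 used its own filter on low counts. The scripts were tested on simulated data. Other alternatives changed the pseudocount, filter, scaling, groups fitted, thresholds, a replicate block and the libraries left out.

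The class II genes and all lists were chosen with earlier results of these data known. Named genes were all 8, list genes called by limma or else DESeq2, up to 4 examples a list by mean and the 10 genes most alike; Rfx5, Rfxap, Rfxank, Creb1, Nfya, Nfyb, Nfyc, Ctss, Ifi30, Lgmn, March1, Zbtb46, Cxcl10, Ifngr1, Iigp1 and Irf1 were chosen after their values were seen. Deviations from the group means of Dox and Tc libraries with the same replicate number in the sample titles had r = 0.29, 0.32 and 0.18. For controls, r was -0.05 to 0.06 with Dox and -0.08 to 0.01 with Tc. Within each group a library resembled a mixture of the others, so these r values are not independent. They cannot show whether replicate numbers pair the libraries. Coordinates are those of GRCm38, from GENCODE vM21, and lengths are merged exon bases. The result of 1 monocyte marker is not reported here.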

Additional observations from a re-analysis of the deposited data

How the results depend on the processing

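For Dox against control, 1 of the 7 class II genes was called in the limma model of all 9 libraries. In this section, a count with an unadjusted p means a limma p under 0.05 with the 2-fold limit kept. The count was 7 of 8 with DESeq2 (without H2-Eb1 and with H2-DMb2), 7 with an unadjusted p, 0 without libraries 3 with limma or DESeq2, 0 of 4 genes at a mean of at least 50 (H2-DMa was below that limit), and 0 to 6 when single libraries were left out (0 without control library 2, control library 3 or Dox library 3, and 6 without Dox library 1). Between Dox and Tc it was 0, and 3 with an unadjusted p or 0 to 1 with single libraries left out (H2-Ab1 without Dox library 1). Of the partner genes, 0 were called for Dox against control, 1 with DESeq2, with the replicate block or with no fold change limit, 2 with an unadjusted p, and 0 to 4 with single libraries left out (Ctss, Lgmn, Ifi30 and March1 without Dox library 2). For Tc against control the partner count was 1 when only these groups were fitted and 2 with an unadjusted p. Between Dox and Tc it was 1 with DESeq2, 1 with an unadjusted p and 0 to 1 with single libraries left out. The replicate block, which pairs libraries of the same number, changed no call of a class II gene (1, 0 and 0 in the 3 comparisons), and over all genes it left 96 higher and 461 lower genes for Dox against control, 2 lower ones for Tc against control and 2 for Dox against Tc. For Tc against control the direction turned without Tc library 1, and with single libraries left out the log2 fold change ranged from -0.92 to 0.03 for H2-Aa, -0.88 to 0.13 for H2-Ab1, -0.92 to 0.15 for H2-Eb1, -1.13 to 0.09 for H2-DMb1, -0.74 to 0.13 for Cd74, which also turned without control library 2 (0.03), and -0.81 to 0.09 for Ciita. With the same total for every library the median of all genes moved to 0.17 for Dox against control and 0.16 for Dox against Tc, and that of the class II genes to -2.13 and -1.70. The cause of these changes was not tested. Depth limits H2-DMb2, H2-DMb1 and Ciita, with 0 to 3, 9 to 10 and 1 to 16 reads in the Dox libraries.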
